A study of Mus musculus with 162 samples.

Results

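The molecular clock was followed here through 10 genes: *Per1*, *Per2*, *Per3*, *Cry1*, *Cry2*, *Arntl* (also called *Bmal1*), *Npas2*, *Nr1d1*, *Nr1d2* and *Dbp*. They were chosen by name, as core members and direct outputs of the clock, from the 46078 genes listed in the count files, of which 45229 carried a gene symbol. Each was compared between mice treated with MC903 and mice treated with its vehicle, ethanol. MC903 is calcipotriol, a vitamin D analog that produces an itchy, atopic dermatitis-like skin inflammation when it is painted on mouse skin. In mm10, *Dbp* lies at chr7:45705088-45710203, *Nr1d1* at chr11:98767932-98775333, *Per1* at chr11:69095217-69109960 and *Arntl* at chr7:113207465-113314126.

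RNA was sequenced from cheek skin, from the trigeminal ganglia, which hold the cell bodies of the sensory neurons of the face, and from spinal cord, where the drug had been applied to the back. All animals were adult males on the C57BL/6 background, kept in a light-dark cycle of 12 h each, and each comparison set MC903 (0.2 mM in ethanol daily, 20 µL on the cheek) against ethanol in mice of the same genotype, injection and day. Wild-type mice without injection were taken on day 1 (6 h after the first application), day 2, day 5 and day 8 for skin and ganglia, and on day 8 for cord. Wild-type mice given aGr1, a neutrophil-depleting antibody (250 µg daily by intraperitoneal injection), or PBS as its injection control were taken on day 8 for all 3 tissues. TSLPR.KO mice, which lack the receptor for the cytokine TSLP because of a deletion in *Crlf2*, were taken on day 8 and day 12 for skin and ganglia, and BLT1.KO mice, which lack the leukotriene B4 receptor encoded by *Ltb4r1*, on day 8 for skin. Wild-type day 12 libraries were left out. The sources used here do not give the hour at which tissue was taken. Hour of dissection and treatment therefore cannot be told apart where groups were dissected apart.

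The 144 libraries comprised 61 of skin (30 ethanol and 31 MC903), 56 of ganglia (27 and 29) and 27 of cord (13 and 14), in groups of 2 to 8. They held 15931871 to 67342879 counts on genes, with a median of 27654801.5, and no pair of libraries held identical values. Reads shared with an overlapping gene cannot be told apart, because the strand setting of the counting is not given in the sources used here, and this touches *Dbp* (*Sphk2*), *Nr1d1* (*Thra*), *Per3* (*Camta1*), *Cry2* (*D930015M05Rik*) and *Npas2* (*Gm20428*, *Gm3617*). Separate libraries were taken as replicates, and p-values measure only the spread between them, which may be technical where libraries did not come from separate animals. The uninjected wild-type day 8 group of skin and ganglia was made of 2 sets of libraries, called cohorts A and B here. The sets stand apart in the order of the samples, and the fit held a term for them. Titles repeat between the sets, and what set them apart in the experiment is not given in the sources used here. In cohort A of uninjected day 8 skin, 2 MC903 libraries carry the replicate number 1 and 2 ethanol libraries the number 3. They were counted as separate libraries (5 MC903 and 6 ethanol in the group, which is also the reference of the skin interactions), and whether they came from separate animals is not given in the sources used here. Markers of the labelled tissue were high in all libraries, but some also carried markers of another tissue. In skin, MC903 replicate 3 of day 2 had a summed sensory-neuron marker level of 1191 cpm (counts per 1000000 counts of a library, scaled by edgeR's TMM), against 2.90 to 73 in the other skin libraries. In the ganglia, MC903 replicate 1 of day 1 had 266.3 cpm of epidermal markers and 381.8 cpm of muscle markers. Ethanol replicate 1 of day 5 held 152.8 cpm of epidermal markers and MC903 replicate 1 of TSLPR.KO mice on day 8 172.9 cpm, against a ganglion median of 7.90 cpm. In cord, ethanol replicate 1 of the aGr1 group held 368 cpm of muscle markers, against a median of 32.5 cpm. Skin *Crlf2* ran from 0.0604 to 1.52 cpm in TSLPR.KO libraries and from 2.14 to 14.6 cpm in the others, while *Ltb4r1* overlapped between BLT1.KO libraries (2.32 to 15.4 cpm) and the rest (2.27 to 79.9 cpm), so that gene does not check the BLT1.KO labels.

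The clock is a feedback loop of transcription. BMAL1, the protein of *Arntl*, pairs with CLOCK or with its relative NPAS2 and switches on the *Per* and *Cry* genes, whose proteins return to block that pair. The same pair drives *Nr1d1* and *Nr1d2*, which encode the nuclear receptors REV-ERBα and REV-ERBβ and in turn repress *Arntl* and *Npas2*, and it drives *Dbp*, which encodes a transcription factor acting on D-box sequences of output genes. *Dbp*, the *Nr1d* genes and *Per3* therefore peak at the opposite time of day from *Arntl* and *Npas2* in peripheral tissue. *Per1* is also an acute target of glucocorticoid and cAMP signalling.

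To show the regulatory letters this description rests on, promoter windows of 250 bases before the annotated start were searched on both strands (RefSeq, GRCm38.p6). RefSeq windows were found for 9 of the 10 genes, the exception being *Per2*. The E-box CACGTG, bound by the BMAL1 pair, was found in *Per1* and *Cry1* and in 6.04% of all 32526 distinct windows. The related E-prime-box CACGTT was found in *Cry1*, *Cry2* and *Nr1d1* and in 3.87% of all windows. The D-box TTANGTAA was found only in *Per3*, which held 2 matches, and in 2.03% of all windows. The REV-ERB and ROR receptor element (0.495% of all windows), the cAMP response element TGACGTCA (1.56%) and the glucocorticoid response element (0.0615%) had no match in any member's window. The 5 windows with a match are shown 5′ to 3′ on the gene's strand without the 10 bases nearest the start, with the matched letters, or their reverse complement, in capitals: *Per1* (chr11:69098699-69098938, plus strand), *Per3* (chr4:151044676-151044915, minus), *Cry1* (chr10:85185065-85185304, minus), *Cry2* (chr2:92434080-92434319, minus) and *Nr1d1* (chr11:98775388-98775627, minus).
Per1: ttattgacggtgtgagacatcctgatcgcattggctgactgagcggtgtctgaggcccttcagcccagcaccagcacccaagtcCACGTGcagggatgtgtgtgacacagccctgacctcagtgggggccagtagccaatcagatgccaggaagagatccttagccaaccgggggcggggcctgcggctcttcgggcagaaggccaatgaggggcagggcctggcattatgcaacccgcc
Per3: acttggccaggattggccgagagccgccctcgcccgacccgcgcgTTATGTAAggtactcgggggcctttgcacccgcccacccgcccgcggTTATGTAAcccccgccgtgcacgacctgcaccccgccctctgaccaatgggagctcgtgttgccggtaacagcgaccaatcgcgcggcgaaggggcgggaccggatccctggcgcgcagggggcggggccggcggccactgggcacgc
Cry1: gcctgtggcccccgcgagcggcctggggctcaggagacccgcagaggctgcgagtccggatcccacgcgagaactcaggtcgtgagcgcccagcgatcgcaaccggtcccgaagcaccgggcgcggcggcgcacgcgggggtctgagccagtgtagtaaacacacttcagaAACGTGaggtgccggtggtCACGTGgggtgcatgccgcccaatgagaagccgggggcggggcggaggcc
Cry2: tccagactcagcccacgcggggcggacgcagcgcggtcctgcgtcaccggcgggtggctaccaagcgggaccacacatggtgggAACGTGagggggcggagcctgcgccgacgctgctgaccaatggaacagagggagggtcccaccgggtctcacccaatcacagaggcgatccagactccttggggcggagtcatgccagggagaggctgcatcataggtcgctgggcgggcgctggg
Nr1d1: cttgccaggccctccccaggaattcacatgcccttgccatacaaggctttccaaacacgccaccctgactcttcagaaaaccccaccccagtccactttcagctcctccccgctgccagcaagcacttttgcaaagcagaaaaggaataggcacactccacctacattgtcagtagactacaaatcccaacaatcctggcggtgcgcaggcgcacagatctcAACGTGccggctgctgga
*Per1* had 2 RefSeq windows, and its E-box lay in 1 of them, 166 bases before the start that this window precedes. The other *Per1* window held no match. The E-box of *Cry1* lay 60 bases before its start. The D-boxes of *Per3* lay 205 and 158 bases before its start. A match is a description of these letters, and no binding was measured.

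In the vehicle-treated uninjected day 8 animals, *Nr1d2* had the highest level per kilobase of exon of the 10 genes in all 3 tissues and *Npas2* the lowest. The mean for *Nr1d2* was 25.3 ± 5.62 cpm per kb in skin (SD, n = 6), 32.2 ± 2.0 in ganglia (n = 5) and 48.3 ± 5.72 in cord (n = 5). *Npas2* stood at 0.674 ± 0.267, 0.501 ± 0.201 and 1.32 ± 0.268 cpm per kb in the same order, and *Arntl* was the second lowest in each tissue, at 2.77 ± 0.580, 0.899 ± 0.316 and 1.56 ± 0.285. The second place went to *Dbp* in skin and cord (12.6 ± 6.50 and 28.7 ± 4.35 cpm per kb) and to *Cry2* in ganglia (26.8 ± 2.54). In skin, each neighbour from the first place to the ninth overlapped the next, so that order is not beyond the spread. *Arntl* and *Npas2* overlapped in ganglia and cord (1.12 to 1.91 and 0.873 to 1.57 cpm per kb in cord) but not in skin.

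All 10 genes were tested in each of 20 comparisons of MC903 with ethanol, with a gene called where edgeR's quasi-likelihood test gave a Benjamini-Hochberg adjusted p below 0.05 (skin and cord) or 0.1 (ganglia) over all genes tested. In skin, 39 of 90 tests were called, 38 of them lower with MC903. In the ganglia, 7 of 80 tests were called, all lower, and in the cord 10 of 30, of which 7 were higher. Where called, the clock genes were therefore mostly lower in treated skin, all lower in ganglia, and mostly higher in cord. The share of all genes called ran from 0 to 32.6% in the skin comparisons. It ran from 0 to 3.36% in ganglia and from 0 to 12.2% in cord. The 3 lower calls in cord were *Dbp* in 2 comparisons and *Nr1d1* in 1, and both genes had a negative log2 fold change in all 3.

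**Figure D1:**
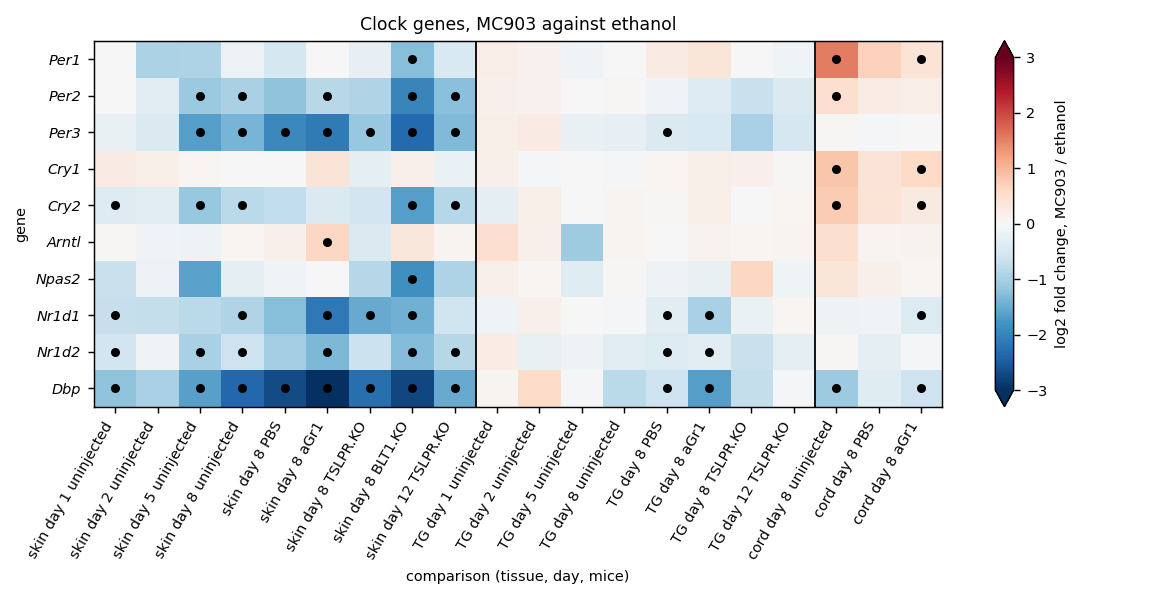
Heat map of log2 fold changes, MC903 against ethanol, for the 10 clock genes (rows) in the 20 comparisons (columns, by tissue and group), on a colour scale from -3 (blue) to 3 (red). Dots mark calls, and the skin columns are mostly negative (*Dbp* from -4.06 to -0.98) while *Per1*, *Cry1* and *Cry2* are positive in the 3 cord columns.

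The number of members called in skin is read against the share of all genes called in the same comparison. On day 1, 4 of 10 were called (13% of all genes), all lower (7.47% of all genes were called lower). On day 5 there were 5, all lower (14.9%, 6.78% lower), and on day 8 6, all lower (23.4%, 11.2% lower). In the PBS group 2 were called, both lower (3.99%, 0.721% lower), and in the aGr1 group 6 (32.6%), of which 5 were lower (17.5%) and 1 higher (15.1%). In TSLPR.KO mice 3 were called on day 8 (2.45%, 1.14% lower) and 5 on day 12 (10%, 4.62% lower), and in BLT1.KO mice 8 (28.6%, 14.6% lower), all of them lower. On day 2, edgeR called 0 members and 0 of 24580 genes (0%). At an unadjusted p below 0.05 there were 1190 genes and 1 member, *Dbp*, on that day, and DESeq2 called 0 members. The median log2 fold change of the 10 members was -0.31 on day 1, -0.33 on day 2, -1.04 on day 5 and -0.71 on day 8, and it lay between -0.64 and -1.55 in the other skin groups, while the median over all genes lay between -0.04 and 0.09 in the 9 comparisons.

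*Dbp*, the output transcription factor, was called lower in more comparisons than any other member (12 of 20). Its MC903 and ethanol libraries did not overlap in any of the 9 skin comparisons, MC903 being lower in each, and 8 of the 9 were called. The share of all genes without overlap was not counted, and small groups can stand apart by the spread of libraries alone. On day 1, 6 h after the first application, ethanol libraries held 49.9, 70.6, 70.8 and 54.6 cpm and MC903 libraries 31.7, 23.5, 13.9 and 36.4 cpm. Every treated library was thus below every control already on that day (log2 fold change -1.21 ± 0.25 SE, edgeR adjusted p = 0.0158). This call was lost without MC903 replicate 2 (-1.13, adjusted p = 0.0531) or ethanol replicate 3 (-1.12, 0.0514). On day 2 the ethanol libraries held 84.3 and 64.7 cpm and the MC903 libraries 24.1, 55.6 and 33.5 cpm, a difference of -0.98 ± 0.41 that was not called (edgeR adjusted p = 0.898). On day 5 the levels were 103.1, 88.2 and 89.4 cpm with ethanol against 33.3, 37.5 and 19.9 cpm with MC903, without overlap (-1.62 ± 0.24, edgeR adjusted p = 0.0047).

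On day 8 the cohorts differed in level but not in direction. *Dbp* in cohort A stood at 38.9, 73.5 and 43.1 cpm with ethanol and at 5.43, 14 and 7.58 cpm with MC903. In cohort B it stood at 24.9, 22.3 and 24.3 cpm with ethanol and at 6.92 and 3.46 cpm with MC903. The groups were apart within each cohort, and the fit over both gave -2.37 ± 0.28 (edgeR adjusted p = 6.83e-05). The largest difference was in aGr1-injected mice, where 41.5, 48.7, 41.1 and 53.8 cpm with ethanol stood against 2.40, 1.68, 4.08 and 3.0 cpm with MC903 (-4.06 ± 0.26, edgeR adjusted p = 1.49e-05). PBS-injected mice gave 39.4, 58.5 and 22.5 cpm against 7.32 and 4.88 cpm, again without overlap (-2.67 ± 0.45, edgeR adjusted p = 0.0287). That last call was lost without MC903 replicate 1 (-2.99, adjusted p = 0.132), MC903 replicate 2 (-2.43, 0.190) or ethanol replicate 1 (-2.73, 0.158).

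In the knockout lines *Dbp* fell as well. TSLPR.KO skin on day 8 held 40.1 and 24.7 cpm with ethanol and 5.88, 8.01 and 6.26 cpm with MC903 (-2.27 ± 0.28, edgeR adjusted p = 0.00344). On day 12 it held 40.7, 30.7 and 32.1 cpm against 10.3, 15.4, 8.94 and 12.4 cpm (-1.52 ± 0.22, edgeR adjusted p = 0.00339). In BLT1.KO skin the controls stood far higher, at 202.5, 122.5 and 162.3 cpm, and the treated libraries at 27.4, 21.5 and 25.2 cpm (-2.73 ± 0.20, edgeR adjusted p = 4.43e-05). Treated BLT1.KO skin therefore held about as much *Dbp* as the vehicle-treated skin of cohort B.

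**Figure D2:**
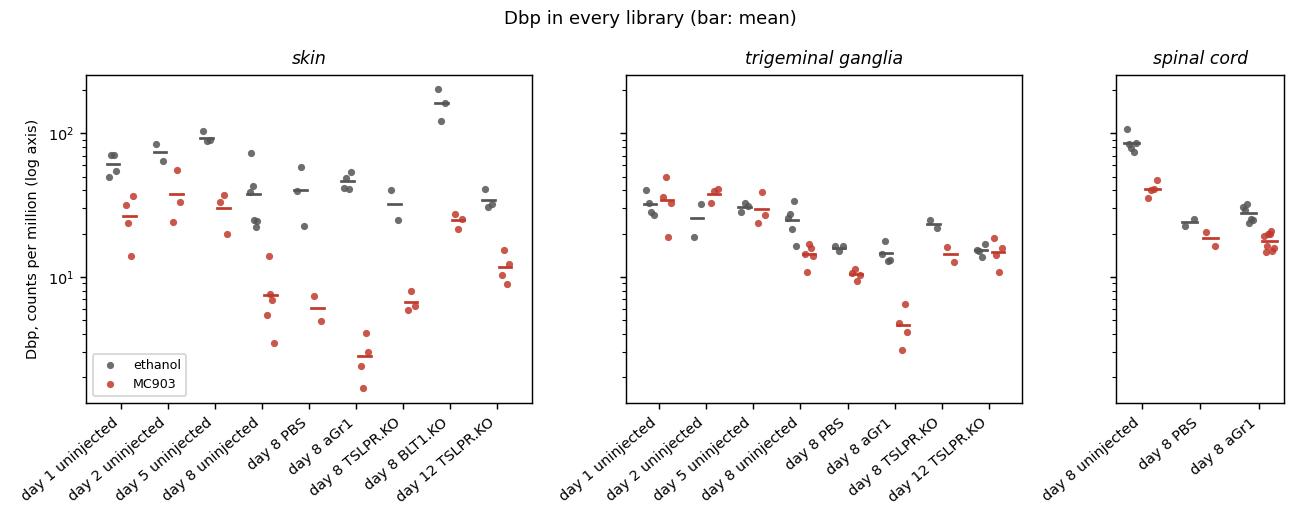
*Dbp* in every library, in cpm on a log axis, by tissue and comparison, with ethanol libraries as grey points, MC903 libraries as red points and bars at the means. In all 9 skin comparisons every MC903 library lies below every ethanol library, down to 1.68 cpm in the aGr1 group.

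*Nr1d1* and *Nr1d2*, the repressors of *Arntl*, were lower with MC903 in all 9 skin comparisons by fold change, and called in 5 and 6 of them. *Nr1d1* libraries did not overlap in any of the 9, a count with the same limit as for *Dbp*. In aGr1-injected mice *Nr1d1* held 118.4, 110.6, 110.6 and 136.2 cpm with ethanol and 24.9, 20.0, 34.7 and 28.8 cpm with MC903 (-2.14 ± 0.17, edgeR adjusted p = 4.25e-05). The controls of that group were the highest for this gene, and its treated libraries reached the level of uninjected day 8 controls. *Nr1d1* was also called on day 1 (-0.69 ± 0.15, edgeR adjusted p = 0.0190), where ethanol held 34.5 to 42.2 cpm and MC903 17.2 to 28.3 cpm. It was called on day 8 (-0.91 ± 0.20, edgeR adjusted p = 0.00619), in TSLPR.KO mice on day 8 (-1.51 ± 0.25, 0.0148) and in BLT1.KO mice (-1.45 ± 0.24, 0.00233), but not on day 2 (-0.71 ± 0.44), on day 5 (-0.81 ± 0.27, 0.0833), in the PBS group (-1.27 ± 0.36, 0.129) or in TSLPR.KO mice on day 12 (-0.61 ± 0.21, 0.105).

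Several of these calls were lost in a subset of libraries. On day 1 *Nr1d1* was lost without MC903 replicate 2 (-0.63, edgeR adjusted p = 0.0648) or ethanol replicate 2 (-0.62, 0.0566). In TSLPR.KO mice on day 8 it was lost without MC903 replicate 1 (-1.55, 0.0811) or 3 (-1.44, 0.0634), or ethanol replicate 1 (-1.16, 0.0964). In uninjected day 8 mice it was lost in cohort A alone (-0.98, 0.0736), as was that of *Nr1d2* (-0.56, 0.126). *Nr1d2* changed less per gene, from -0.57 ± 0.15 on day 1 (edgeR adjusted p = 0.0381) to -1.35 ± 0.21 in aGr1-injected mice (0.00139), and its BLT1.KO libraries held 330.8, 325.9 and 372.8 cpm with ethanol against 146.8, 130 and 141.9 cpm with MC903 (-1.31 ± 0.13, 0.000166). It was also called on day 5 (-0.97 ± 0.24, 0.031), on day 8 (-0.61 ± 0.15, 0.0112) and in TSLPR.KO mice on day 12 (-0.86 ± 0.18, 0.0177). The day 1 and day 5 calls of *Nr1d2* held in 2 of 8 and 1 of 6 fits that left out 1 library, with adjusted p up to 0.117 and 0.103, and the day 12 call in 4 of 7, with adjusted p up to 0.0641.

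Among the period genes, which encode the proteins that block the BMAL1 pair, *Per3* was called lower in 7 skin comparisons, *Per2* in 5 and *Per1* in 1. *Per3* was called on day 5 (-1.64 ± 0.36, edgeR adjusted p = 0.0206), day 8 (-1.40 ± 0.22, 0.000548), in the PBS group (-1.93 ± 0.33, 0.0293), the aGr1 group (-2.11 ± 0.17, 4.25e-05), TSLPR.KO mice on day 8 (-1.15 ± 0.21, 0.0229) and day 12 (-1.33 ± 0.30, 0.0249), and BLT1.KO mice (-2.32 ± 0.16, 3.44e-05). In the aGr1 group *Per3* held 58.2, 73.3, 48.9 and 57.8 cpm with ethanol and 13.5, 11.7, 12.5 and 17.6 cpm with MC903. In BLT1.KO skin it held 134.5, 130.1 and 155.0 cpm against 31.9, 22.8 and 29.7 cpm. Both pairs of groups were far apart. In those 2 groups and on uninjected day 8 every fit without 1 library kept the call, but the day 8 call was lost in cohort B alone (-0.95, adjusted p = 0.065). Elsewhere *Per3* calls held in 2 of 6 such fits on day 5 (adjusted p up to 0.0703), 2 of 5 in the PBS group (up to 0.214), 1 of 5 in TSLPR.KO mice on day 8 (up to 0.103) and 2 of 7 on day 12 (up to 0.0761).

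*Per2* was called on day 5 (-1.11 ± 0.29, edgeR adjusted p = 0.0397), day 8 (-0.97 ± 0.18, 0.00204), in the aGr1 group (-0.84 ± 0.25, 0.0297), in BLT1.KO mice (-1.97 ± 0.16, 7.18e-05) and in TSLPR.KO mice on day 12 (-1.25 ± 0.17, 0.00269). In BLT1.KO skin it held 84.5, 93.4 and 120.7 cpm with ethanol and 23, 27.1 and 26.8 cpm with MC903. *Per2* depended strongly on the cohort on day 8, where ethanol stood at 26.2 to 45.8 cpm in cohort A and at 9.49 to 11.4 cpm in cohort B, and its call was lost in cohort B alone (-0.69, adjusted p = 0.0705) and without the cohort term (-0.96, 0.115). Its day 5 and aGr1 calls held in 1 of 6 and 3 of 8 fits without 1 library, with adjusted p up to 0.136 and 0.0842. *Per1* was called in fewer groups, and its difference from *Per2* and *Per3* was not tested. It was called in BLT1.KO mice (-1.29 ± 0.11, 9.54e-05), at 128.1, 117.8 and 111.2 cpm with ethanol against 50.9, 49.2 and 47.2 cpm with MC903. In the other skin groups *Per1* ran from -0.94 ± 0.43 on day 2 and -0.94 ± 0.34 on day 5 to 0.01 ± 0.17 on day 1 and 0.02 ± 0.20 with aGr1, with -0.17 ± 0.19 on day 8, -0.53 ± 0.36 with PBS, and -0.24 ± 0.23 and -0.46 ± 0.15 in TSLPR.KO mice on day 8 and day 12.

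The cryptochromes, the partners of the period proteins, split. *Cry2* was called lower in 5 skin comparisons. On day 5 its ethanol libraries held 82.8, 85.4 and 83.8 cpm and its MC903 libraries 34.9, 38.4 and 40.9 cpm (-1.14 ± 0.14, edgeR adjusted p = 0.0025). The controls lay close together and all treated libraries were below them. *Cry2* was also called on day 1 (-0.39 ± 0.10, 0.0348), day 8 (-0.81 ± 0.11, 0.000186), in BLT1.KO mice (-1.65 ± 0.14, 8.15e-05) and in TSLPR.KO mice on day 12 (-0.85 ± 0.14, 0.00702). The day 1 call held in 2 of 8 fits without 1 library (adjusted p up to 0.101). *Cry1* was called in no skin comparison, with log2 fold changes between -0.26 and 0.39.

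*Arntl* and *Npas2*, the activators, did not move as a pair. *Arntl* was called in 1 comparison, as higher, in the aGr1 group, where ethanol held 11.8, 10.4, 17.1 and 11.3 cpm and MC903 18.1, 22.7, 19.4 and 18.6 cpm (0.63 ± 0.17, edgeR adjusted p = 0.0199). Every treated library was above every control, but the call was lost without ethanol replicate 2 (0.55, 0.0532). In BLT1.KO skin *Arntl* was also apart, at 8.94, 9.70 and 9.78 cpm against 12, 11.7 and 12.8 cpm (0.35 ± 0.15, edgeR adjusted p = 0.126). In TSLPR.KO skin on day 8 it was apart the other way, at 27.1 and 26.4 cpm against 16.1, 24.6 and 18.3 cpm (-0.44 ± 0.24, 0.44). Neither of these passed the threshold. Elsewhere *Arntl* lay near the control (0.05 ± 0.12 on day 1, -0.11 ± 0.50 on day 2, -0.15 ± 0.18 on day 5, 0.05 ± 0.12 on day 8, 0.16 ± 0.23 with PBS and 0.09 ± 0.17 on day 12). *Npas2* was low, and negative in all 9 comparisons, and was called in BLT1.KO mice at 1.74, 3.50 and 2.04 cpm against 0.615, 0.963 and 0.483 cpm (-1.83 ± 0.42, 0.0111).

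**Figure D3:**
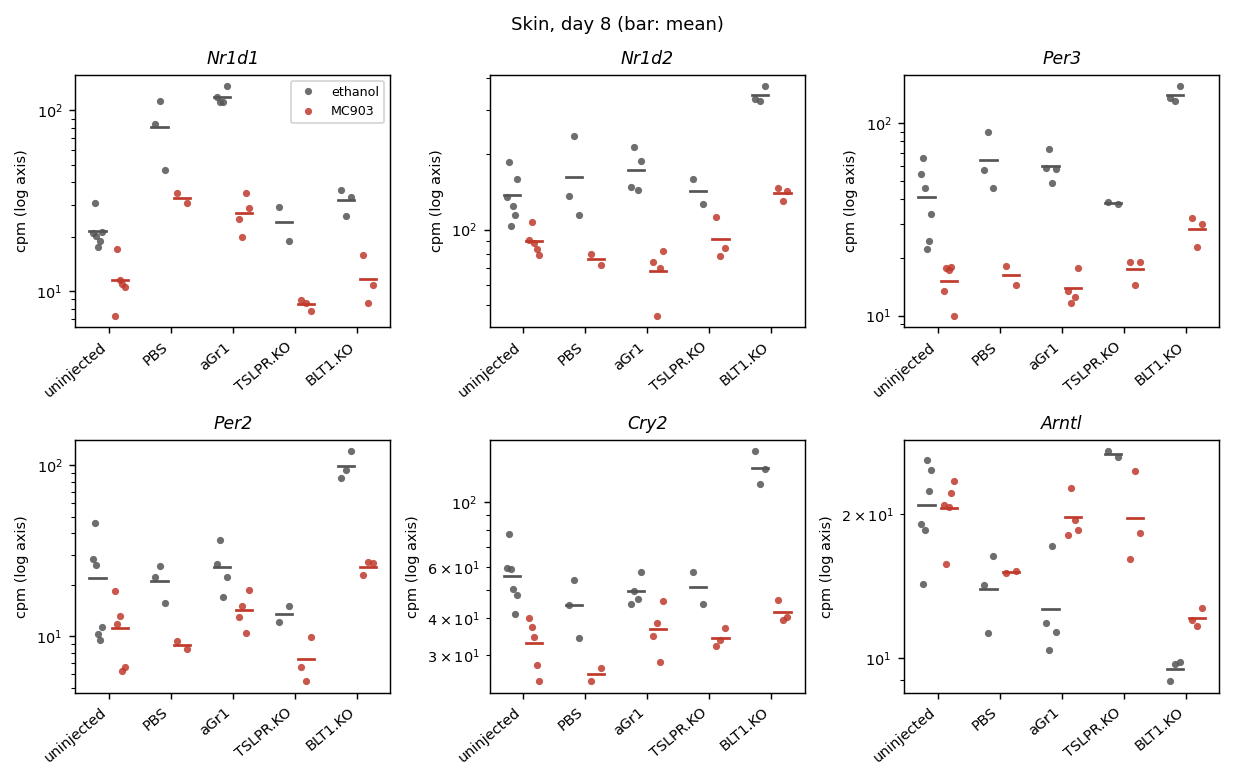
*Nr1d1*, *Nr1d2*, *Per3*, *Per2*, *Cry2* and *Arntl* in the skin libraries of day 8, in cpm on a log axis, by group, with ethanol libraries as grey points, MC903 libraries as red points and bars at the means. *Nr1d1* and *Per3* sit lower with MC903 in every group without overlap, while *Arntl* overlaps between treatments in uninjected wild-type skin, where it differed by 0.05 on the log2 scale.

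Marker levels of other cell types moved with treatment in skin. The ratio of the MC903 to the ethanol median of the summed muscle markers was 0.57 on day 1, 0.31 on day 8 and 0.17 in BLT1.KO mice, where the ranges were 3117 to 8792 cpm and 19680 to 35010 cpm. Fat markers gave ratios of 0.25 to 1.16 and epidermal markers of 0.82 to 2.51 over the 9 comparisons, and none of these markers was at or under 3 counts in every library. Fewer cells of a type and less RNA per cell cannot be told apart in these bulk libraries, and the part of these shifts in the clock gene results was not tested. Leaving out the day 2 library with sensory-neuron markers gave -0.89 for *Dbp* (edgeR adjusted p = 0.6246), -0.44 for *Nr1d1*, -0.84 for *Per1* and 0.23 for *Arntl*, which turned sign, and 0 members were called with or without it.

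In the trigeminal ganglia, clock genes were called by edgeR in the PBS and aGr1 groups and in no other. With aGr1, 3 members were called (1.88% of all genes) and with PBS 4 (3.36%), all lower (1.01% and 1.45% of all genes were called lower). *Dbp* in the aGr1 group held 14.5, 17.8, 12.9 and 13.1 cpm with ethanol and 4.77, 3.07, 6.43 and 4.11 cpm with MC903 (-1.66 ± 0.19, edgeR adjusted p = 0.000892). *Nr1d1* held 30.5, 39.5, 36.4 and 38.8 cpm against 20.8, 13.5, 22.9 and 16.7 cpm (-0.97 ± 0.15, 0.00533). Both genes were apart between treatments, and each kept its call in all 8 fits without 1 library. *Nr1d2* was called at -0.34 ± 0.09 (0.0956), and kept this in 1 of 8 such fits (adjusted p up to 0.220). *Per1* (0.36 ± 0.16, 0.355) and *Arntl* (0.10) were not called.

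In PBS-injected mice *Dbp* held 16.4, 15.1 and 16.3 cpm with ethanol and 10.7, 11.3, 9.41 and 10.4 cpm with MC903 (-0.61 ± 0.09, edgeR adjusted p = 0.00294). *Nr1d1* held 37.9, 41.6 and 38.5 cpm against 31.8, 33.7, 32 and 29.7 cpm (-0.32 ± 0.06, 0.0216). Controls and treated libraries were apart for both, at smaller distances than with aGr1. *Nr1d2* (-0.41 ± 0.08, 0.0211) and *Per3* (-0.44 ± 0.10, 0.0472) were called too, and *Per1* (0.26, 0.527) and *Arntl* (0.00) were not. *Nr1d1* and *Nr1d2* lost their calls without ethanol replicate 2 (-0.28, 0.155, and -0.39, 0.125), *Per3* kept its call in 2 of 7 such fits (adjusted p up to 0.199), and all 4 were lost in 1 fit over the whole tissue, at near-equal fold changes (*Dbp* -0.61).

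In the other 6 ganglion comparisons 0 members were called by edgeR, against 0% of all genes on day 1, day 2 and in TSLPR.KO mice on day 8, 0.00823% on day 5, 0.160% on day 8 and 0.304% in TSLPR.KO mice on day 12. At an unadjusted p below 0.05 the members numbered 0, 1 (*Dbp*), 3 (*Per3*, *Nr1d2*, *Dbp*), 1 (*Arntl*), 2 (*Dbp*, *Nr1d2*) and 3 (*Per2*, *Per3*, *Nr1d2*) in that order, and DESeq2 called 0, 0, 0, 0, 2 and 1. On day 8, *Dbp* held 25.7, 27.3, 21.7, 33.7 and 16.3 cpm with ethanol and 14.5, 10.9, 17, 15.9 and 13.9 cpm with MC903, with an overlap of 1 control library (-0.80 ± 0.18, edgeR adjusted p = 0.195). On day 5, *Arntl* held 6.70, 7.20 and 5.07 cpm against 4.03, 2.69 and 2.36 cpm, apart but not called (-1.08 ± 0.29, edgeR adjusted p = 0.9996). *Dbp* was 0.08 on day 1, 0.55 ± 0.23 on day 2, -0.04 on day 5, -0.72 ± 0.24 in TSLPR.KO mice on day 8 and -0.05 on day 12. *Nr1d1* ran from -0.20 to 0.16, *Per1* from -0.14 to 0.20 and *Arntl* elsewhere from 0.07 to 0.51 over the same comparisons.

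The replicate numbers of TSLPR.KO ganglia on day 12 paired the libraries, and the fit with that block called 2 members where the fit without it called 0. Without the day 1 library that carried skin and muscle markers, *Dbp* gave 0.08, *Arntl* 0.47, *Nr1d1* -0.07 and *Per1* 0.19, and 0 members were called. In TSLPR.KO mice on day 8, 1 of the 2 MC903 libraries held 172.9 cpm of epidermal markers, against 3.07 to 6.88 cpm in the other 3, and its part in the *Dbp* value was not tested.

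In the spinal cord most calls were higher with MC903, but only in part for the genes called lower in skin. *Cry2* and *Per2*, called lower in 5 skin comparisons each, were called higher in 2 and 1 cord comparisons. *Per1* and *Cry1*, each called higher in 2, had been called lower in 1 skin comparison and in 0. *Dbp* and *Nr1d1* had negative log2 fold changes in all 3 cord comparisons, and *Nr1d2* and *Per3* in 2 of 3. In uninjected mice 5 members were called (12.2% of all genes), 4 of them higher (5.05%) and 1 lower (7.14%). With aGr1 also 5 were called (11.3%), 3 higher (4.54%) and 2 lower (6.79%). *Per1* in uninjected mice held 28.9, 33.7, 30.7, 27 and 25.3 cpm with ethanol and 68.2, 60.9, 51.7 and 160.5 cpm with MC903 (1.53 ± 0.26, edgeR adjusted p = 0.00162). All 4 treated libraries lay above all controls and replicate 4 far above the other treated ones. Without it the fold change was 1.04 and the call remained. *Cry1* held 23.8, 15.1, 16.1, 15.3 and 15.3 cpm against 32.1, 28.5, 22.7 and 41 cpm (0.84 ± 0.17, 0.00576), with treated replicate 3 below 1 control. *Cry2* held 152.2, 106.8, 109.2, 109.1 and 116.2 cpm against 182.5, 178.4, 159.1 and 298.5 cpm, apart (0.76 ± 0.16, 0.00737).

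*Per2* rose in the same animals, from 24.2 to 28.1 cpm with ethanol to 30.4 to 41.6 cpm with MC903 (0.49 ± 0.10, edgeR adjusted p = 0.0047). *Dbp* fell, from 107.7, 84.3, 78.9, 73.7 and 85.4 cpm to 35.6, 40.2, 40.9 and 47.2 cpm (-1.09 ± 0.11, 3.14e-05). So the output gene dropped in the same libraries in which *Per1*, *Per2*, *Cry1* and *Cry2* rose. *Arntl* (0.47 ± 0.16, 0.0665) and *Nr1d1* (-0.14 ± 0.18, 0.694) were not called, and every one of the 5 calls held in all 9 fits without 1 library.

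With aGr1, *Cry1* rose from 10.3 to 12.7 cpm (6 controls, median 11.97) to 15.9 to 20.9 cpm (8 treated, median 16.7), without overlap (0.60 ± 0.07, edgeR adjusted p = 2.1e-05). *Per1* rose from 49.7 to 79.6 cpm (median 60.97) to 71.4 to 99.2 cpm (median 80.3), with overlap (0.41 ± 0.09, 0.00683), and *Cry2* by 0.28 ± 0.07 (0.00793). *Nr1d1* fell from 68.8 to 83.4 cpm (median 78.2) to 53.2 to 63.9 cpm (median 57.6) (-0.40 ± 0.05, 5.46e-05), and *Dbp* from 23.8 to 32.4 cpm (median 27.3) to 14.8 to 20.8 cpm (median 17.7) (-0.63 ± 0.09, 0.000119), both apart. *Arntl* did not pass (0.10 ± 0.09, 0.534). All 5 calls held in the 14 fits without 1 library, and *Per1* and *Cry2* were lost in 1 fit over the whole tissue (0.39, 0.196, and 0.26, 0.189). In PBS-injected mice, with 2 libraries a group, edgeR called 0 members and 0% of all genes. There, 1571 genes and 2 members (*Per1*, *Cry1*) had an unadjusted p below 0.05, and DESeq2 called 0 members. *Per1* held 43.1 and 47.4 cpm against 87.8 and 56.7 cpm (0.68 ± 0.22, 0.685) and *Dbp* 22.6 and 25.2 cpm against 20.5 and 16.49 cpm (-0.36 ± 0.16, 0.82), both apart, with *Nr1d1* at -0.10 and *Arntl* at 0.08.

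**Figure D4:**
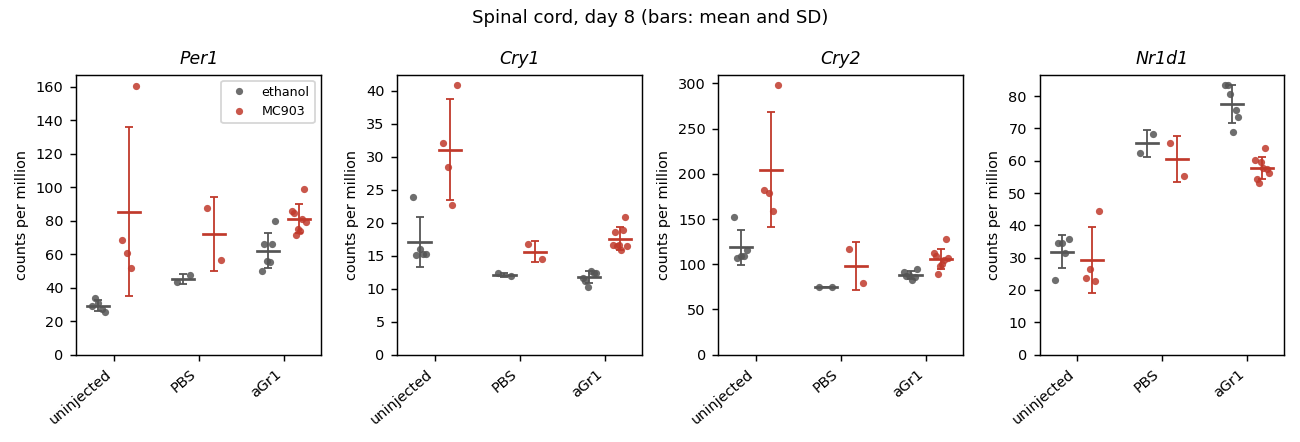
*Per1*, *Cry1*, *Cry2* and *Nr1d1* in the spinal cord libraries of day 8, in cpm, by injection group, with ethanol libraries as grey points, MC903 libraries as red points, and bars for the mean and SD. The means of *Per1*, *Cry1* and *Cry2* lie higher with MC903 in each group, and uninjected MC903 replicate 4 stands at 160.5 cpm for *Per1*.

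Because *Per1* is also a glucocorticoid target, 8 glucocorticoid-responsive genes were counted beside it. In uninjected cord all 8 were called higher with MC903 (median 1.04 over the list and 0.01 over all genes): *Sgk1* by 2.49, *Ddit4* by 2.02, *Fkbp5* by 1.81, *Dusp1* by 1.16, *Zbtb16* by 0.93, *Klf9* by 0.73, *Errfi1* by 0.68 and *Tsc22d3* by 0.37. In the aGr1 cord 4 were called higher (*Ddit4* 1.13, *Sgk1* 1.04, *Fkbp5* 0.63, *Dusp1* 0.47), and with PBS 0, although the list median was 0.996. In the ganglia 5 were called higher with aGr1 (*Fkbp5* 0.95, *Sgk1* 0.89, *Klf9* 0.67, *Tsc22d3* 0.66, *Ddit4* 0.62), where 1.88% of all genes were called. With PBS 2 were called higher (*Fkbp5* 0.75, *Errfi1* 0.24), where 3.36% of all genes were called. In the other ganglion groups 0 were called, against at most 0.304% of all genes. The list median was 0.67 with aGr1, 0.23 with PBS and 0.44 on day 1. The shares of all genes called in cord and skin stand with the member counts above. In skin the list went lower in BLT1.KO mice (5 lower: *Tsc22d3* -2.17, *Zbtb16* -2.01, *Klf9* -1.36, *Ddit4* -1.13, *Fkbp5* -0.99), where *Per1* fell, and higher with aGr1 (*Ddit4* 1.79, *Errfi1* 1.32, *Sgk1* 1.19). It was also called lower where *Per1* was not called, in 3 genes on day 5 (*Zbtb16* -1.94, *Klf9* -1.28, *Fkbp5* -0.95, list median -0.64), in 3 in TSLPR.KO mice on day 8 (*Zbtb16* -1.43, *Tsc22d3* -1.40, *Fkbp5* -1.39, median -0.57) and in 2 on day 12 (*Zbtb16* -0.87, *Klf9* -0.86). On day 1 and day 8 of uninjected mice 1 was called higher and 2 lower, and on day 2 and with PBS 0. Of 7 immediate early genes, which answer quickly to stimulation, *Nr4a1* (1.04), *Fos* (0.85) and *Junb* (0.81) were called higher and *Arc* (-1.01) lower in uninjected cord, with a list median of 0.40. Schwann and satellite cell markers were lower there, at 6838 to 9399 cpm against 12570 to 19680 cpm. The part of these shifts in the *Per1* values was not tested.

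Whether the response differed between groups was tested as an interaction at day 8, with the same uninjected wild-type libraries as the reference for every group of a tissue. In these differences, group and dissection or sequencing batch cannot be told apart. In skin, aGr1 differed for 2 members (4.56% of all genes, 3.36% lower), *Dbp* (-1.68 ± 0.39, edgeR adjusted p = 0.0206) and *Nr1d1* (-1.21 ± 0.27, 0.0175), both more negative with aGr1. Against the PBS-injected mice as reference neither was called (-1.34, 0.333, and -0.82, 0.464). *Dbp* also lost the call without aGr1 MC903 replicate 1 (-1.61, 0.0566) or 2 (-1.49, 0.0551). BLT1.KO skin differed for 3 members (6.95%, 2.60% lower): *Per1* (-1.06 ± 0.28, 0.0271), *Per2* (-0.95 ± 0.27, 0.0458) and *Cry2* (-0.79 ± 0.18, 0.0122). *Cry2* kept this in all 17 fits without 1 library, *Per1* in 12 and *Per2* in 4, with adjusted p up to 0.0725 and 0.127. *Dbp* (-0.31), *Nr1d1* (-0.48) and *Arntl* (0.35) did not differ past the threshold there.

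TSLPR.KO skin had 0 members called against uninjected wild-type (0.177% of all genes; edgeR, with 0 members at an unadjusted p below 0.05 and 0 by DESeq2). *Dbp* stood at 0.13, *Nr1d1* at -0.56, *Per1* at -0.03 and *Arntl* at -0.46 (0.423). In ganglia 0 members were called for aGr1 (0% of all genes), with *Nr1d1* (-0.92 ± 0.23) and *Dbp* (-0.85 ± 0.28) at an unadjusted p below 0.05 and an adjusted p of 0.783, and 0 for TSLPR.KO (0%), with *Per2* alone under an unadjusted p of 0.05. DESeq2 called 0 in both. In cord, aGr1 differed for *Per1* (0.532% of all genes, 0.407% lower), which rose less than in uninjected mice (-1.16 ± 0.26, edgeR adjusted p = 0.0348). It held in 11 of 23 fits without 1 library, was -0.66 (0.0711) without uninjected MC903 replicate 4, and was not called against PBS-injected mice (-0.28, 0.878). *Fkbp5* (-1.21), *Zbtb16* (-1.16), *Sgk1* (-1.49) and *Ddit4* (-0.93) differed in the same direction against uninjected mice, and against PBS-injected mice 0 genes were called.

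The controls themselves differed between groups. Over the ethanol groups of skin 9 of 10 members were called (60.8% of all genes), all but *Cry1*. In ganglia 8 were called (62.8%), all but *Cry1* and *Npas2*, and in cord 8 (58.6%), all but *Per3* and *Arntl*. In skin the mean *Per2* level ran 9.57-fold, from 10.4 cpm in day 8 cohort B to 99.5 cpm in BLT1.KO mice. *Dbp* ran 6.82-fold between the same groups (23.8 to 162.4 cpm), and *Nr1d1* 6.20-fold (19.2 cpm in cohort B to its highest mean with aGr1), whereas *Cry1* ran 1.51-fold. In ganglia *Nr1d1* ran 4.38-fold, from 8.99 to 39.4 cpm, the highest being PBS, and in cord *Dbp* ran 3.60-fold, from 23.9 cpm with PBS to 86 cpm in uninjected mice. Group and dissection or sequencing batch cannot be told apart here, so levels set across groups are a description.

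Since *Dbp*, the *Nr1d* genes, *Per2* and *Per3* peak at other hours than *Arntl* and *Npas2*, samples taken at different hours stand apart in these sets in opposite directions. To describe this, an antiphase index was taken in each library as the mean log2(cpm + 0.5) of the first 5 genes minus that of *Arntl* and *Npas2*. It was lower with MC903 in 18 of 20 comparisons (9 of 9 in skin, 6 of 8 in ganglia, 3 of 3 in cord). The groups were apart in 11 of those and apart upward in 1, ganglia on day 5. Among the 11 were comparisons with only 2 libraries in a group, which can stand apart by spread alone. These were PBS skin and cord, and TSLPR.KO skin and ganglia on day 8. In skin the largest differences were -2.36 with aGr1, -1.58 with PBS and -1.46 in BLT1.KO mice, all apart, then -0.998 on uninjected day 8, where the groups overlapped, and -0.795 in TSLPR.KO mice on day 12, apart. In ganglia they were -0.97 in TSLPR.KO mice on day 8 and -0.70 with aGr1, both apart. The TSLPR.KO value rests on 2 libraries a group, and 1 of its MC903 libraries is the one with epidermal markers named above. The part of that library in the value was not tested.

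The mean of *Arntl* and *Npas2* was lower with MC903 in 7 of 9 skin comparisons, and higher only with aGr1 (0.32) and PBS (0.01). The 2 genes of that mean differed. *Npas2* had a negative log2 fold change in 9 of 9 and *Arntl* in 3 of 9, and in BLT1.KO mice *Arntl* was 0.35 and *Npas2* -1.83. In ganglia it was lower in 4 of 8, and in cord in 0 of 3. In uninjected cord the first set changed by -0.12 and *Arntl* and *Npas2* by 0.42, for an index of -0.55. In ganglia on day 5 the first set changed by -0.10 and *Arntl* and *Npas2* by -0.64.

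Within groups, the antiphase was examined through deviations of each library from its group mean, for 4 pairs in 3 tissues (12 relations, 100000 permutations within groups, adjusted over the 12). In skin, *Dbp* and *Arntl* had r = -0.352 (n = 61, permutation adjusted p = 0.172) and Spearman's rho = -0.423 (adjusted p = 0.0313), and r = -0.308 without the 2 libraries farthest from the median. Among the 30 ethanol libraries r was -0.588, and without the library with sensory-neuron markers -0.510 (adjusted p = 0.00324). *Nr1d1* and *Arntl* gave r = -0.139 (adjusted p = 0.688) and rho = -0.343 (0.101), and -0.513 without that library (0.00324). The pairs with *Npas2* were positive in skin, at r = 0.158 for *Per3* (permutation adjusted p = 0.460) and 0.167 for *Nr1d2* (0.387). In cord, *Dbp* and *Arntl* gave r = -0.501 (n = 27, permutation adjusted p = 0.12) and rho = -0.500 (0.0704), and *Nr1d2* and *Npas2* r = -0.518 (0.11) and rho = -0.554 (0.0313). Without the 2 farthest libraries these were -0.405 and -0.691. The other cord pairs gave r = 0.436 for *Nr1d1* and *Arntl* (permutation adjusted p = 0.244) and -0.428 for *Per3* and *Npas2* (0.272). In ganglia the 4 coefficients lay between -0.103 and 0.154 (n = 56), none past the threshold. Among the 27 ethanol libraries of ganglia all were positive, and again none passed. There r was 0.437 for *Dbp* and *Arntl* (permutation adjusted p = 0.241) and 0.379 for *Nr1d1* and *Arntl* (0.334). For *Npas2* it was 0.0647 with *Per3* and 0.0463 with *Nr1d2*.

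**Figure D5:**
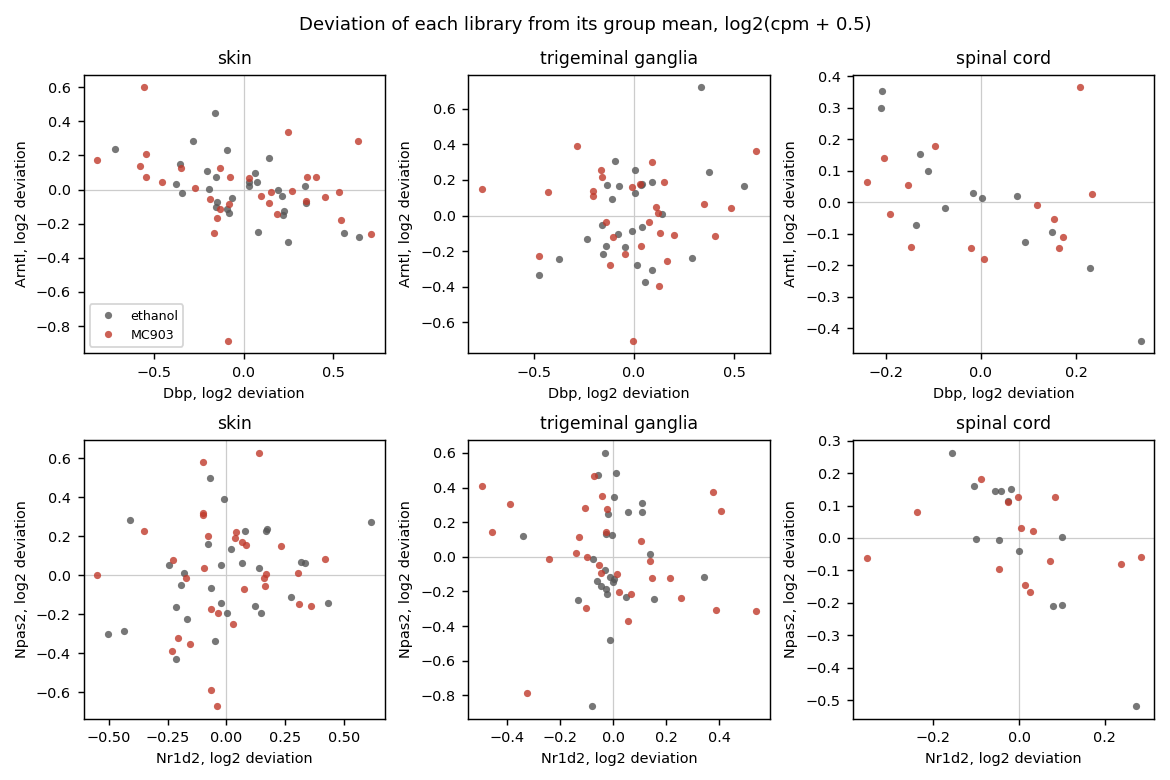
Deviation of each library from its group mean on the log2(cpm + 0.5) scale, *Arntl* against *Dbp* (upper row) and *Npas2* against *Nr1d2* (lower row), by tissue, with ethanol libraries in grey and MC903 libraries in red. The slope is downward for *Dbp* and *Arntl* in skin (r = -0.352) and cord (r = -0.501), and for *Nr1d2* and *Npas2* in cord (r = -0.518).

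The other clock genes, a list of 20 further regulators, were counted in the same way, and no test set their balance of higher and lower calls against that of all genes. Called higher and lower, they numbered 2 and 5 on day 1, 1 and 7 on day 5, 3 and 7 on day 8, 0 and 1 with PBS, 5 and 7 with aGr1, 0 and 2 in TSLPR.KO mice on day 8, 4 and 11 in BLT1.KO mice, and 0 and 5 on day 12. In the same order 13, 14.9, 23.4, 3.99, 32.6, 2.45, 28.6 and 10% of all genes were called, and with aGr1 15.1% of all genes were called higher and 17.5% lower. The median log2 fold change of the 20 was -0.75 in BLT1.KO mice, -0.33 on day 8 and 0.01 with aGr1, against -0.04, -0.03 and -0.02 over all genes. *Hlf* and *Tef*, which encode relatives of DBP that bind the same D-box, were called lower in 8 and 7 skin comparisons. *Hlf* was -1.49 on day 1, -2.37 on day 5, -1.85 on day 8, -3.06 with PBS, -2.88 with aGr1, -2.26 and -1.31 in TSLPR.KO mice on day 8 and 12, and -2.79 in BLT1.KO mice. *Tef* ran from -0.67 on day 1 to -1.94 in BLT1.KO mice over its 7 calls. *Bhlhe41*, which encodes a repressor of the BMAL1 pair, was lower in 6 (-0.52 to -1.81), and *Ciart* in 5 (-0.64 to -2.40).

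The exceptions in skin were *Clock*, the partner of BMAL1, which was called higher on day 8 (0.70), with aGr1 (0.59) and in BLT1.KO mice (0.61), *Arntl2*, a relative of *Arntl*, at 1.46, 1.11 and 1.07 in the same groups, and *Nfil3*, which encodes a repressor at D-boxes, on day 1 (0.55) and with aGr1 (0.85). In ganglia *Timeless* was called higher on day 8 (0.67), with PBS (0.71), with aGr1 (0.51) and on day 12 (0.74). In uninjected cord *Usp2* (0.85), *Tef* (0.55), *Rora* (0.45) and *Csnk1e* (0.44) were called higher, and with aGr1 *Tef* (0.22) and *Csnk1e* (0.16). *Tef*, unlike *Dbp*, was thus higher in the cord. The BLT1.KO response differed from wild-type in 7 of the 20, among them *Ciart* (-1.71), *Rora* (-1.31), *Wee1* (-1.06), *Tef* (-0.84) and *Cipc* (-0.67) more negative and *Timeless* (1.14) more positive, and the cord aGr1 response in *Usp2* (-0.75).

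Genes whose deviations followed the index most closely were ranked over 17627 genes in skin, 16946 in ganglia and 17235 in cord, by Pearson's r over the libraries of a tissue, as a description. In skin the highest was *2310061I04Rik* (0.723, n = 61) and the lowest *Aatf* (-0.742). In ganglia they were *Epb41l5* (0.545, n = 56) and *Slc7a11* (-0.536), and in cord *Hoxc5* (0.788, n = 27) and *Gm6181* (-0.816). Of clock genes outside the index, *Tef* (0.629) and *Nfil3* (-0.600) in skin and *Ciart* (0.753) and *Bhlhe41* (0.714) in cord were among those that followed it. Others did so less, such as *Bhlhe41* (0.111), *Clock* (0.106) and *Usp2* (0.0039) in skin and *Tef* (0.0855) and *Nfil3* (-0.178) in cord. In ganglia clock genes outside the index ran from -0.346 (*Nfil3*) to 0.361 (*Cipc*). Libraries with markers of another tissue were included in these values.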

How the data were processed

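The authors aligned single-end poly(A) reads to mm10 and deposited raw counts per Ensembl gene in 1 file per library. Their processing notes name Bowtie2, TopHat, TopHat2 and HTSeq, with versions not given in the sources used here. HTSeq's tallies outside genes (9.001 to 32.22% of counts) were left out. From the counts, cpm was scaled by TMM over the libraries of a tissue. Each comparison was fitted on its own libraries with edgeR 4.0.16 (TMM, quasi-likelihood F test, genes with at least 10 counts in total, R 4.3.3), with a cohort term in uninjected wild-type day 8 skin and ganglia. The thresholds were 0.05 (skin, cord) and 0.1 (ganglia). The authors' methods name DESeq, which was not used here. DESeq2 1.42.0, RLE scaling, other filters, 1 fit per tissue, a replicate block and leaving out libraries were alternatives. The scripts were tested on simulated counts with known changes. Of 2-fold changes, 85% were recovered in uninjected day 8 skin and 100% in PBS ganglia. In the aGr1 skin interaction 38% were recovered, and between the skin ethanol groups 37%. In the same order 2.67, 15.25, 5.39 and 4.51% of the genes called were false.

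Members and gene lists were chosen with earlier results of these data known. Named genes were the called members, *Dbp*, *Nr1d1*, *Per1* and *Arntl* in every comparison, and called genes of the lists, except that values of 1 gene counted in the list of other clock genes are not reported here. Same-numbered libraries were checked for pairing in 21 comparisons, from the correlation of their deviations. Numbers were taken to pair libraries where 3 or more pairs all had r above 0.1. Only 13 of the 21 checks had that many pairs, so the others could not meet this rule. In 2, both in ganglia (wild-type day 5, r 0.161 to 0.368, and TSLPR.KO day 12, r 0.238 to 0.618), the numbers paired the libraries. All wild-type day 12 libraries (18) were left out.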

Additional observations from a re-analysis of the deposited data

Results flagged for a closer look

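A library far from the others was looked for in 220 tests, each of a member or the antiphase index in a group of 4 to 10 libraries. Of these, 16 flagged one, where chance flags about 1 in 20. The tests reuse the same libraries for genes that vary together, so they are not independent. In the spinal cord of uninjected mice, MC903 replicate 4 stood above its group for *Per1* (160.5 cpm) and *Cry2* (298.5 cpm), and ethanol replicate 1 for *Cry1* (23.8 cpm), *Cry2* (152.2 cpm) and *Nr1d2* (314.2 cpm). In the aGr1 cord, ethanol replicate 4 was low for *Per3* (45.6 cpm). In aGr1 skin, ethanol replicate 1 stood apart for *Per1* (92.9 cpm), *Cry1* (11.9 cpm) and *Npas2* (1.78 cpm), and MC903 replicate 2 for *Cry1* (25.5 cpm). In TSLPR.KO skin on day 12, MC903 replicate 3 was low for *Per1* (47.1 cpm) and MC903 replicate 2 for *Cry1* (16.2 cpm). In uninjected day 8 skin, 1 ethanol library of cohort A numbered 3 was high for *Nr1d1* (30.8 cpm). In ganglia, ethanol replicate 1 of day 1 was high for *Arntl* (9.21 cpm), MC903 replicate 1 of cohort A on day 8 for *Cry2* (215.9 cpm), and MC903 replicate 4 of the PBS group stood apart for *Nr1d2* (106.1 cpm).

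The response to MC903 differed from that of uninjected wild-type mice, on the log2 scale, for *Dbp* (-1.68) and *Nr1d1* (-1.21) in aGr1 skin, for *Per1* (-1.06), *Per2* (-0.95) and *Cry2* (-0.79) in BLT1.KO skin, and for *Per1* (-1.16) in aGr1 cord. With PBS-injected mice as the reference, none of the aGr1 differences was called. In fits without 1 library, *Nr1d1* and *Cry2* kept the call in all and *Dbp* in 17 of 19. In BLT1.KO skin *Per1* kept it in 12 of 17 and *Per2* in 4 of 17, and in aGr1 cord *Per1* in 11 of 23.

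In 4 cases the MC903 and ethanol libraries were apart in opposite directions in different groups, and the difference was not tested. Both sides were called only for *Cry2* in uninjected mice, and of the other values only *Arntl* with aGr1 was called. Small groups can stand apart by the spread of libraries alone. Cord came from mice treated on the back, and day 2 skin includes the library with sensory-neuron markers. *Cry2* on day 8 was -0.81 in skin and 0.76 in cord of uninjected mice, and -0.74 and 0.40 in PBS-injected mice. *Dbp* on day 2 was -0.98 in skin and 0.55 in ganglia. *Arntl* in day 8 skin was 0.63 with aGr1 and 0.35 in BLT1.KO mice but -0.44 in TSLPR.KO mice.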

How the results depend on the processing

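Of 62 called member results, 40 kept their call under every alternative and 39 without any 1 library. Of 944 refits 816 kept side and direction, the others lost the call, and 0 reversed. The cause of a lost call was not tested. Members called moved as follows. DESeq2 gave 8 for 5 (skin day 5), 4 for 2 (skin PBS), 2 for 0 (ganglia day 8), 1 for 0 (ganglia TSLPR.KO day 12) and 5 for 3 (BLT1.KO interaction). With 1 fit over a tissue there were 1 for 4 (skin day 1), 8 for 5 (skin day 5), 6 for 2 (skin PBS), 1 for 0 (ganglia day 8), 0 for 4 (ganglia PBS), 2 for 0 (ganglia TSLPR.KO day 8) and 3 for 5 (cord aGr1). Without a low-count filter there were 2 for 0 in ganglia on day 8 and in TSLPR.KO ganglia on day 8, and 1 for 0 in both ganglion interactions, and cohort A alone gave 1 for 0 in ganglia on day 8. With PBS-injected mice as reference the aGr1 interactions gave 0 for 2 in skin and 0 for 1 in cord. With the replicate block, where numbers paired the libraries, the count was 2 for 0 in TSLPR.KO ganglia on day 12 and 0 for 0 in wild-type ganglia on day 5. Elsewhere the numbers did not meet the pairing rule or had too few pairs for it (same-number r from -0.585 to 0.545). On skin day 2, with 2 pairs, same-number r was 0.196 and 0.229, against at most 0.0463 between other numbers. In these comparisons the block gave 2 for 4 (skin day 1), 1 for 5 (skin TSLPR.KO day 12) and 1 for 0 (ganglia TSLPR.KO day 8). In PBS cord the correlation was -0.431, and crossed numbers, tried after seeing the data, gave 1 for 0 with a replicate block. Other member counts under the block stayed within 1.5 times.

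Without 1 library, member counts ran from 0 to 5 (skin day 1), 2 to 5 (skin day 5), 0 to 4 (skin PBS), 1 to 3 (skin TSLPR.KO day 8), 3 to 5 (skin day 12), 0 to 2 (ganglia day 2 and ganglia TSLPR.KO day 8), 0 to 1 (ganglia day 8), 2 to 4 (ganglia PBS) and 0 to 5 (cord PBS). For interactions they ran from 1 to 3 (aGr1 skin), 1 to 4 (BLT1.KO), 0 to 1 (ganglia TSLPR.KO) and 0 to 2 (aGr1 cord). The index kept its value within 1 SD in 183 of 184 settings, and was -0.72 for -0.47 on skin day 5 with a pseudocount of 2. Correlations that passed the threshold under an alternative were *Dbp* with *Arntl* in skin (-0.588 in ethanol libraries, -0.510 without the library with sensory-neuron markers) and cord (-0.894, ethanol), *Nr1d1* with *Arntl* in skin (-0.513 without that library) and *Nr1d2* with *Npas2* in cord (-0.894 in ethanol libraries, -0.691 without the 2 farthest). Those without the mixed library were added after seeing the data. Below the threshold, signs turned for *Nr1d1* with *Arntl* in cord (0.436 to -0.0794 without the 2 farthest), for *Nr1d2* with *Npas2* in ganglia (-0.103 to 0.0143 without the 2 farthest and 0.0463 in ethanol libraries) and *Per3* with *Npas2* in ganglia (-0.0583 to 0.0647, ethanol).

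Genes called over all genes tested moved by more than 1.5 times. They numbered, with DESeq2, 280 for 0 (skin day 2), 2116 for 973 (skin PBS), 1313 for 594 (skin day 8 TSLPR.KO), 4040 for 2550 (skin day 12 TSLPR.KO), 78 for 0 (ganglia day 1), 65 for 0 (ganglia day 2), 49 for 2 (ganglia day 5), 210 for 41 (ganglia day 8), 887 for 456 (ganglia aGr1), 185 for 0 (ganglia day 8 TSLPR.KO), 260 for 79 (ganglia day 12 TSLPR.KO), 176 for 0 (cord PBS), 2515 for 1269 (skin aGr1 interaction), 559 for 48 (skin TSLPR.KO interaction), 3155 for 1924 (skin BLT1.KO interaction), 5 for 0 (ganglia aGr1 interaction), 169 for 0 (ganglia TSLPR.KO interaction) and 465 for 153 (cord aGr1 interaction). They numbered, with 1 fit over a tissue, 612 for 3213 (skin day 1), 1736 for 0 (skin day 2), 2101 for 973 (skin PBS), 1075 for 594 (skin day 8 TSLPR.KO), 1969 for 0 (ganglia day 1), 86 for 0 (ganglia day 2), 41 for 2 (ganglia day 5), 103 for 41 (ganglia day 8), 31 for 796 (ganglia PBS), 179 for 456 (ganglia aGr1), 1754 for 0 (ganglia day 8 TSLPR.KO), 29 for 79 (ganglia day 12 TSLPR.KO), 5667 for 3118 (cord day 8), 181 for 0 (cord PBS) and 1832 for 3132 (cord aGr1). They numbered, with the replicate block, 1795 for 3213 (skin day 1), 876 for 0 (skin day 2), 641 for 973 (skin PBS), 1274 for 594 (skin day 8 TSLPR.KO), 548 for 2550 (skin day 12 TSLPR.KO), 16 for 0 (ganglia day 2), 54 for 2 (ganglia day 5), 3479 for 796 (ganglia PBS), 480 for 0 (ganglia day 8 TSLPR.KO), 356 for 79 (ganglia day 12 TSLPR.KO), 1747 for 3118 (cord day 8), 224 for 0 (cord PBS) and 1993 for 3132 (cord aGr1). They numbered, with no low-count filter, 27 for 0 (skin day 2), 1401 for 594 (skin day 8 TSLPR.KO), 177 for 0 (ganglia day 2), 30 for 2 (ganglia day 5), 493 for 41 (ganglia day 8), 1271 for 796 (ganglia PBS), 1063 for 0 (ganglia day 8 TSLPR.KO), 80 for 0 (cord PBS), 100 for 48 (skin TSLPR.KO interaction), 30 for 0 (ganglia aGr1 interaction) and 794 for 0 (ganglia TSLPR.KO interaction). They numbered, with PBS-injected mice as the reference, 62 for 1269 (skin aGr1 interaction), 9 for 0 (ganglia aGr1 interaction) and 0 for 153 (cord aGr1 interaction). The crossed pairing gave 955 for 0 in PBS cord, filtering by edgeR's filterByExpr 0 for 2 in ganglia on day 5, cohort B alone 2258 for 6125 in skin and 1 for 41 in ganglia, cohort A alone 63 for 41 and no cohort term 5 for 41 in ganglia.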
